A study of Mus musculus with 2 samples.

Results

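The Zfp genes are mouse genes named for the zinc finger proteins they encode, and 205 rows of the deposited count table, of 25509 gene rows in all, were taken as members here. They were chosen by symbol, Zfp followed by digits alone, and by the measured level, at least 500 counts summed over the 2 libraries. The table held 338 such rows, so that 133 lay under the minimum, and 26 of those were at 0 in both libraries. The members carry 204 symbols, since Zfp865 stands in 2 rows with separate identifiers.

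The 2 libraries came from mouse (C57BL/6) soft tissue sarcoma cells, p53-/-Ccne1+, which are mesenchymal stem cells of p53 knockout mice that overexpress Ccne1. These cells had formed a subcutaneous tumor in primary recipient mice and then lung foci in secondary recipients, from which they were isolated again. One library, shcircCsnk1g3, is from cells with a lentiviral hairpin against the backsplice junction of the circular RNA circCsnk1g3, and the other, shCTR, is from cells with the control hairpin. The comparison asks what changes when the circular RNA is silenced. By their labels both groups share the p53 knockout, the Ccne1 overexpression, the passage through mice, the hairpin vector and puromycin selection, and each group is 1 library, so every difference given here is one between 2 libraries with no replicate check and no test. The methods describe the wild-type and p53 knockout mice of the study as females bought as young adults.

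Most Zfp proteins bind DNA through tandem C2H2 zinc fingers, in which a pair of cysteines and a pair of histidines hold a zinc ion. A large share of them also carry a KRAB domain near the start of the protein, which recruits Trim28 (also called KAP1) and, through it, the histone methyltransferase Setdb1, heterochromatin proteins and the NuRD complex. KRAB zinc finger proteins are best known for silencing retroelements and keeping imprints, and their genes lie in clusters that arose by repeated duplication. Other Zfp genes encode conserved transcription factors, RNA-binding proteins and ubiquitin ligases, and share with the first kind little more than the name.

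The repeat that gives the family its name is shown for 4 members, 2 from the upper and 2 from the lower end of the fold changes described further on. Each line is 1 finger of 21 residues with the linker of 7 residues that follows, read as 84 coding bases from GENCODE M21 transcripts on GRCm38. The capitals mark the codons of the zinc-binding cysteines and histidines. Each stretch lies in the last exon of its transcript.
Zfp39, chr11:58890621-58890704, minus strand: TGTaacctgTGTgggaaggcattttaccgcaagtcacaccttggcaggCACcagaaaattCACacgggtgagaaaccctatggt
Zfp942, chr17:21929011-21929094, minus strand: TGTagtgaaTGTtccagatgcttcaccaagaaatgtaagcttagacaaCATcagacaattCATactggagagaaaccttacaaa
Zfp52, chr17:21560705-21560788, plus strand: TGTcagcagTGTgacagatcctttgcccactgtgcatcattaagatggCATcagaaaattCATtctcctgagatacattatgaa
Zfp771, chr7:127253856-127253939, plus strand: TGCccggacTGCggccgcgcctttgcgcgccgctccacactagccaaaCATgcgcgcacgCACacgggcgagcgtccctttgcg

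The spacing of the zinc-binding codons is that of the pattern searched and so the same in all 4. Over their whole length the repeats shared 41.7% of bases (Zfp942 and Zfp771) to 58.3% (Zfp52 with Zfp39, and Zfp52 with Zfp942). The Zfp771 repeat was the richest in G and C, at 71.4%, against 36.9% for Zfp942. Close copies elsewhere in the genome can divide reads between genes during counting, so each member's longest transcript was cut into windows of 75 bases that were looked for in the transcripts of other genes. Of the members, 114 shared no window and 45 shared at least 5% of their windows with another gene. A further limit is antisense overlap, since 22 members had at least 10% of their exon bases under an exon of the opposite strand and the use of strand in counting was not stated.

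The counts of all genes summed to 38792143 in shcircCsnk1g3 and 42709996 in shCTR. Of 9 mesenchymal markers, 8 had 1787 counts or more in each library, and Thy1 had at most 1 count. Of 8 rows of leukocyte markers, 7 were at or under 3 counts in both libraries, with Cd68 at 87 and 155, and 4 of 5 lung epithelial markers were at 0 in both. Endothelial markers summed to 17 and 24 counts. Csnk1g3, the host gene, had 2159 counts in shcircCsnk1g3 and 2411 in shCTR, and these poly(A) libraries do not measure the circular RNA itself. Trp53, the gene named p53 in the genotype, had 3841 and 4334 counts, and a count per gene does not show which of its exons the reads came from. Ccne1 had 893 and 963 counts. The rows Yam1, Gm42418 and Lars2, which often take reads of ribosomal RNA in mouse libraries, summed to 4588 CPM (counts scaled to library size, here with TMM factors) in shcircCsnk1g3 and 1432 CPM in shCTR. This gap between the libraries stands beside every value below, and its part in them was not tested.

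As a family the Zfp genes were slightly higher in the shcircCsnk1g3 library. The members summed to 251863 counts in shcircCsnk1g3 and 251341 in shCTR, which was 0.649% and 0.588% of all counts. After TMM scaling the ratio of these sums was 1.08-fold, or 0.11 on the log2 scale, and the 95% Clopper-Pearson interval was 0.10 to 0.12. The interval covers counting error between these 2 libraries alone, as do all intervals below. In bulk RNA fewer cells that express a gene and less of its RNA per cell cannot be told apart.

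The median log2 fold change of the 205 members was 0.15 (lower quartile 0.04, upper quartile 0.27), and that of all 9758 genes with at least 500 summed counts was 0.00 (lower quartile -0.13, upper quartile 0.13). Of the members, 165 (80.5%) were higher in shcircCsnk1g3, beside 50.1% of all genes at this level. The other 40 members (19.5%) were lower, beside 49.9% of all genes. The counting interval lay wholly above 0 for 108 members (52.7%), beside 30.3% of all genes, and wholly below 0 for 18 members (8.78%), beside 31.8% of all genes.

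Single differences were small. Higher by 25% or more were 31 members (15.1%), beside 6.55% of all genes, and at or below 0.8 of the shCTR level were 8 members (3.9%), beside 7.84%. At least 1.5-fold higher were 0 members, beside 1.43% of all genes, and at least 1.5-fold lower were 2 members, Zfp503 and Zfp771, beside 2.3% of all genes. The spread of the members, from -1.25 for Zfp503 to 0.56 for Zfp39, lay within that of all genes, from -2.53 to 1.99.

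**Figure D1:**
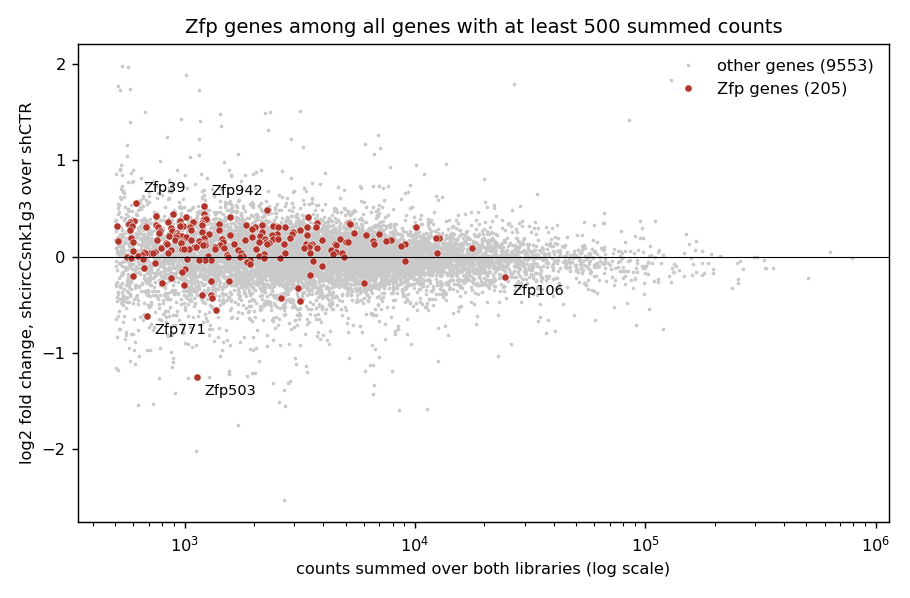
Log2 fold change of shcircCsnk1g3 over shCTR against the counts summed over both libraries (log scale) for the 205 Zfp members (red) and all other genes with at least 500 summed counts (grey), 1 point per gene. Most red points lie in a narrow band just above 0, and Zfp503, at -1.25, lies apart from the rest.

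Level made little difference to the shift. Members with under 1000 summed counts had a median log2 fold change of 0.17 (n = 64), beside 0.05 for all genes from the minimum of 500 up to that bound. Those with 1000 or more but under 2000 had a median of 0.13 (n = 64), beside 0.02. Those with 2000 or more had a median of 0.15 (n = 77), beside -0.01. The 86 Zfp genes that missed the minimum but had at least 10 counts in 1 library or both had a median of 0.15, and 59 (68.6%) were higher, beside a median of 0.02 and 51.4% higher for all 3183 genes in that range.

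At the minimum itself, the members just inside were Zfp287 with 273 counts in shcircCsnk1g3 and 236 in shCTR, Zfp944 with 261 and 251, and Zfp11 with 271 and 293. Just outside it were Zfp472 with 218 and 281 counts, Zfp653 with 254 and 242, and Zfp169 with 223 and 271. The genes on either side of the limit thus had nearly the same depth.

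The member with the most counts was Zfp106, an RNA-binding protein needed in motor neurons and muscle, with 10943 counts in shcircCsnk1g3 and 13611 in shCTR and a log2 fold change of -0.21. Of its windows 24.7% were also found in Gm26899, so its count may hold reads of that gene, and 26.1% of its exon bases lie under an exon of the opposite strand. Zfp207, which loads the checkpoint protein Bub3 onto kinetochores, had 8779 and 8860 counts (0.09). Zfp740 had 6528 and 6149 counts (0.19), Zfp706 had 6104 and 6420 (0.03), and Zfp462, a chromatin regulator of development, had 6323 and 5962 (0.19). Apart from Zfp106, these most abundant members were above 0 on the log2 scale, and the interval of Zfp706 (-0.02 to 0.09) spanned 0.

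Per length the family was expressed at a low level. The median was 3.64 CPM per kilobase of exon over the members, beside 9.68 over all genes with at least 500 summed counts. The highest member by this measure was Zfp207 at 32.6 CPM per kilobase, followed by Zfp598 at 32.0, Zfp706 at 30.9 and Zfp740 at 30.6. Zfp503, at 3.26 CPM per kilobase, stood close to the median member.

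Zfp503 had the largest difference of any member. It encodes a developmental co-repressor of the NocA/Nlz family, also known as Nolz1, and lies on chr14:21983959-21989601 (GRCm38). It had 318 counts (8.11 CPM) in shcircCsnk1g3 and 819 counts (19.4 CPM) in shCTR. The level in the shcircCsnk1g3 library was 0.42 of that in shCTR, a log2 fold change of -1.25 with a counting interval of -1.45 to -1.07. None of its windows occurred in another gene and no exon of another gene overlapped it. Its paralog Zfp703 had 913 and 1008 counts, a log2 fold change of -0.04 with an interval of -0.17 to 0.10, so the interval of the one did not reach that of the other.

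Zfp771 was the other member past 1.5-fold, with 260 counts (6.63 CPM) in shcircCsnk1g3 and 430 (10.2 CPM) in shCTR and a log2 fold change of -0.61 (interval -0.85 to -0.39). Zfp52, a KRAB gene, had 530 and 837 counts (-0.55, interval -0.71 to -0.39). Zfp871, also a KRAB gene, had 1274 and 1892 counts (-0.46). These genes shared no window with another gene, and their exons were overlapped by other genes for 0.348% of bases or less.

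Zfp652, a repressor that works with the co-repressor Cbfa2t3, had 1070 counts in shcircCsnk1g3 and 1552 in shCTR (-0.43), with 19.3% of its exon bases under exons of the opposite strand. Zfp511 had 540 and 782 counts (-0.43). Zfp961 had 490 and 699 counts (-0.40). The 10 lowest members were completed by Zfp57, described with the imprinting factors below, Zfp219, a cofactor of Sox9 in cartilage, with 1326 and 1786 counts (-0.32) and 12.7% of its exon bases under an exon of the opposite strand, and Zfp697 with 430 and 568 counts (-0.29). All 10, which were chosen by fold change, had a counting interval wholly below 0, as had 18 of the 205 members in all.

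At the upper end, Zfp39 had 357 counts (9.10 CPM) in shcircCsnk1g3 and 260 counts (6.15 CPM) in shCTR, a log2 fold change of 0.56 with an interval of 0.33 to 0.80. Of its windows 7.26% were also found in another gene, and an exon of the opposite strand covers 11.4% of its exon bases. Zfp942 had 695 and 520 counts (0.52, interval 0.36 to 0.69), and 4.01% of its windows were shared, most often with Zfp944 on the same chromosome. Zfp362, the third in this order, had 1286 and 992 counts (0.48) and no shared window. The intervals of these genes overlapped, so their order is not resolved.

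Zfp839 had 676 counts in shcircCsnk1g3 and 534 in shCTR (0.45), Zfp930 had 496 and 393 (0.44), and Zfp605 had 415 and 334 (0.42). Zfp65 had 562 and 453 counts (0.42), and Zfp655 had 1907 and 1543 (0.41). Zfp46 had 866 and 703 counts (0.41) and Zfp868 had 678 and 553 (0.40). A KRAB pattern was found in 7 of these 10 genes, all but Zfp362, Zfp839 and Zfp655. It was found in 4 of the 10 lowest, Zfp52, Zfp871, Zfp961 and Zfp57. Among all 204 members with an annotated protein it was found in 93.

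**Figure D2:**
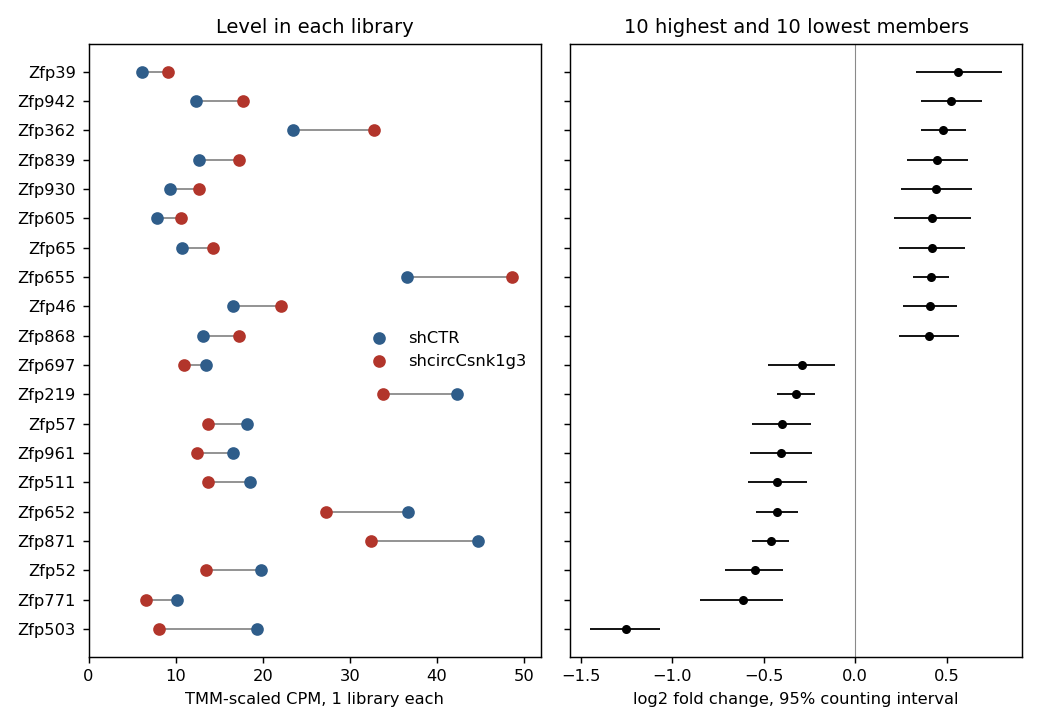
The 10 members with the highest and the 10 with the lowest log2 fold change. Left, TMM-scaled CPM in the shCTR (blue) and shcircCsnk1g3 (red) library, 1 library each. Right, log2 fold change with the 95% counting interval. The 20 genes were chosen by fold change, and none of their intervals reaches 0. The interval of Zfp503 lies below all others.

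The members were next sorted by protein pattern, from the coding sequence of each gene. Of the 204 members with an annotated protein, 93 held a sequence that matched a KRAB pattern and 111 did not. The pattern misses some variant boxes, so that the second group still holds KRAB proteins. The median number of C2H2 fingers was 9.5, with a highest value of 36, and 6 members had no match to the finger pattern, Zfp503, Zfp703, Zfp839 and Zfp36 among them.

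Members with the KRAB pattern had a median log2 fold change of 0.21 (lower quartile 0.06, upper quartile 0.32), and 78 of 93 were higher in shcircCsnk1g3. Members without it had a median of 0.13 (lower quartile 0.01, upper quartile 0.20), with 87 of 111 higher. The shares higher were 83.9% and 78.4%, beside 50.1% of all genes. Higher by 25% or more were 25 of the 93 and 6 of the 111, beside 6.55% of all genes. The counting interval lay above 0 for 53 of the 93 and 55 of the 111, beside 30.3% of all genes. The summed counts were 60731 and 58324 for the KRAB group, a ratio of 1.12-fold, and 190692 and 192487 for the other group, a ratio of 1.07-fold.

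Within the KRAB group the number of fingers made no visible difference, with a median of 0.21 for 66 members with at least 10 fingers and 0.21 for 27 with fewer. In the group without the pattern, 88 members with 3 or more fingers had a median of 0.12 and 23 with fewer had a median of 0.15. The 6 members with a SCAN pattern, a dimerization domain, were all higher, with a median of 0.26, beside 50.1% of all genes higher. The interval lay above 0 for 4 of them and spanned 0 for 2.

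The same readout was made for genes of like protein build that the symbol rule left out. Among these, 28 with a KRAB pattern and 3 or more fingers had a median log2 fold change of 0.26, with 25 (89.3%) higher. Another 120 with 3 or more fingers and no KRAB pattern had a median of 0.15, with 90 (75%) higher, beside 50.1% of all genes. Of these genes 7 and 5 have a Zfp symbol with letters after the digits.

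**Figure D3:**
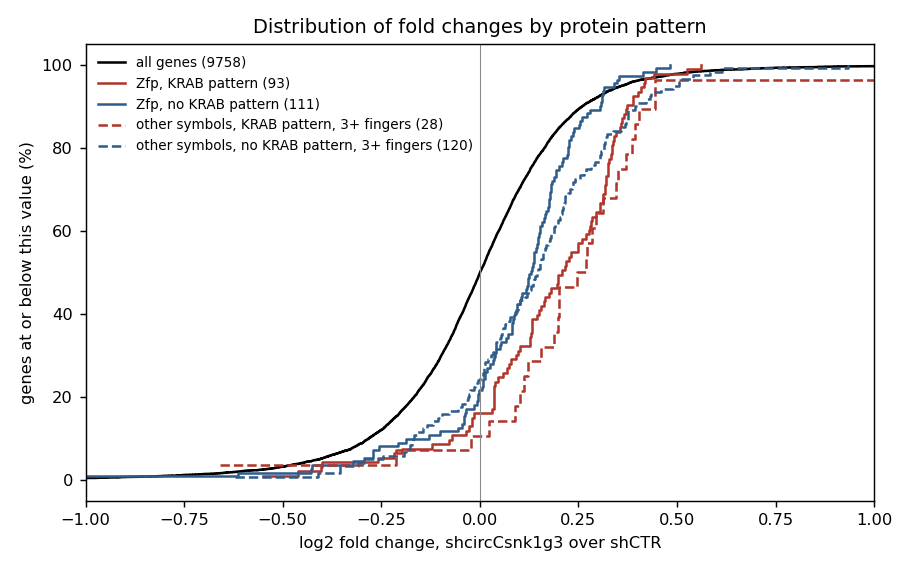
Cumulative share of genes (%) by log2 fold change, for all genes with at least 500 summed counts (black), Zfp members with (red) and without (blue) a KRAB pattern, and genes outside the symbol rule with at least 3 fingers (dashed). The x axis covers -1 to 1 and leaves out the few values beyond. All 4 zinc finger curves lie to the right of the black curve over the middle of the range, those with the KRAB pattern farthest.

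Base composition moved with the shift. The members' median GC content was 45.9%, beside 49.5% for all genes, and it was 42.5% for the KRAB group. Across the 204 members with a sequence, Spearman's rho between log2 fold change and GC content was -0.29, and across 9746 genes it was -0.10. These are descriptions across genes that share 2 libraries. In the lowest GC tertile of the members the median was 0.18 (n = 68), beside 0.04 for all genes in the same GC range. In the middle tertile it was 0.15, beside 0.00, and in the highest tertile 0.11, beside -0.01. With the median of genes of like GC content and length subtracted, the median was 0.18 for the KRAB group and 0.10 for members with 3 or more fingers and no KRAB pattern.

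KRAB proteins with known targets gave values on both sides. Zfp57, which keeps methylation at imprinted regions, had 539 counts in shcircCsnk1g3 and 767 in shCTR, a log2 fold change of -0.40 (interval -0.56 to -0.24). Zfp445, which acts at imprinted regions too, had 1316 and 1207 counts (0.23, interval 0.12 to 0.35). The intervals of these genes lay on opposite sides of 0. Zfp568, a repressor of a placental Igf2 transcript, had 1080 and 936 counts (0.31). Zfp809, which silences retroviruses, was under the minimum with 167 and 171 counts, and Zfp708 had 7 and 26 counts, with 100% of its windows found in Gm28557.

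The partners through which KRAB proteins act showed less of a shift. Of the 34 genes listed, 33 had at least 500 summed counts, all but Dnmt3b. The median log2 fold change of the 33 was 0.05, with 22 (66.7%) higher and 11 lower, beside 50.1% of all genes higher. The counting interval lay above 0 for 15 and below 0 for 7, beside 30.3% and 31.8% of all genes. Trim28, the direct partner of KRAB, had 15724 counts in shcircCsnk1g3 and 18141 in shCTR (-0.10, interval -0.13 to -0.07). Setdb1, its histone methyltransferase, had 5381 and 5321 counts (0.12, interval 0.07 to 0.18). The 2 ends of the list were Trim24, a relative of Trim28, with 3818 and 2954 counts (0.48), and Chd3, a NuRD remodeler, with 7591 and 10623 counts (-0.38). The other NuRD remodeler Chd4 had 20429 and 21146 counts (0.06), and Zfp410, which activates the Chd4 gene, had 1151 and 1092 (0.18). Of the HUSH complex, which silences retroelements, Mphosph8 had a log2 fold change of 0.14, Pphln1 of 0.06 and Fam208a of -0.11.

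Members that act on RNA or proteins differed by small amounts. Of the 13 listed, 12 had at least 500 summed counts, and 10 of these (83.3%) were higher, close to the 80.5% of all members and beside 50.1% of all genes. Their median log2 fold change was 0.13. Zfp598, the ubiquitin ligase that marks collided ribosomes, stood highest with 5420 and 4703 counts (0.31, interval 0.26 to 0.37). Zfp346, which binds double-stranded RNA, had 1249 and 1150 counts (0.23). Zfp36, or tristetraprolin, which brings AU-rich mRNAs to decay, had 1145 and 1109 counts (0.15, interval 0.03 to 0.27).

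Zfp318, known for its role in IgD expression of B cells, had 1098 counts in shcircCsnk1g3 and 1021 in shCTR (0.21), and Zfp451, a SUMO ligase, had 2436 and 2315 (0.18). Zfp91, a ubiquitin ligase, had 4582 and 4498 counts (0.13), and Zfp622, a factor of the large ribosomal subunit, had 2267 and 2230 (0.13). For Zfp326 (0.09), Zfp638 (0.04) and Zfp830 (-0.04) the interval spanned 0. Zfp106, at -0.21, was the only one of these 12 with an interval below 0. Zfp185 had 4 and 1 counts, too few to compare.

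Among transcription factors and cofactors, 22 of the 26 listed had at least 500 summed counts, and 13 of these (59.1%) were higher, beside 50.1% of all genes and 80.5% of all members. Their median log2 fold change was 0.07. Zfp827, which brings NuRD to telomeres, had 2793 counts in shcircCsnk1g3 and 2357 in shCTR (0.35, interval 0.27 to 0.43). Zfp609, a cofactor of the cohesin loader Nipbl whose gene also makes a known circular RNA, had 4041 and 3853 counts (0.18). Zfp644, a partner of the G9a methyltransferases, had 2027 and 1932 counts (0.18). Also higher with an interval above 0 were Zfp407, Zfp292, Zfp384, Zfp516 and Zfp148, at 0.11 to 0.18.

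Besides Zfp503, Zfp652 and Zfp219, the interval was below 0 for Zfp217, an oncogenic co-repressor subunit, with 1566 counts in shcircCsnk1g3 and 1921 in shCTR (-0.19), and for Zfp281, a pluripotency factor, with 1831 and 2117 (-0.10). For Zfp143, which binds many promoters and chromatin loop anchors, the counts of 1063 and 1158 gave a log2 fold change of -0.02 with an interval of -0.14 to 0.11. The intervals of Zfp687, Zfp335, Zfp703, Zfp592, Zfp532 and Zfp608 spanned 0 as well. Zfp423, a factor of fat cell precursors, had 46 and 22 counts, and its relative Zfp521 had 7 and 24, both under the minimum. Zfp711 was at 0 in both libraries, and the listed symbol Zfp76 matched no row. Zfp523, for which RefSeq gives the synonym Znf76, is a member and had 1998 and 1736 counts (0.31, interval 0.22 to 0.40), and it was named after its values were seen.

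Other zinc finger families were described in the same way, beside all genes with at least 500 summed counts, of which 50.1% were higher. Zscan and Zkscan genes had a median log2 fold change of 0.22, with all 13 higher. Zfp symbols with letters after the digits had a median of 0.15 (12 of 14 higher), the Zfhx, Zeb and Znf genes 0.13 (6 of 6 higher), Zbtb genes 0.10 (24 of 32 higher) and Klf and Sp genes 0.09 (12 of 15 higher). Zc3h genes, whose fingers are of another type and bind RNA, had a median of 0.04 (10 of 17 higher, or 58.8%, near the share of all genes). The counting interval spanned 0 for 3 of the 13 Zscan and Zkscan genes and 8 of the 14 Zfp symbols with letters. The same held for 3 of the 6 Zfhx, Zeb and Znf genes and 13 of the 32 Zbtb genes. Among Klf and Sp genes it held for 8 of 15, and among Zc3h genes for 9 of 17. Some genes of these families are also among those counted by finger number above.

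**Figure D4:**
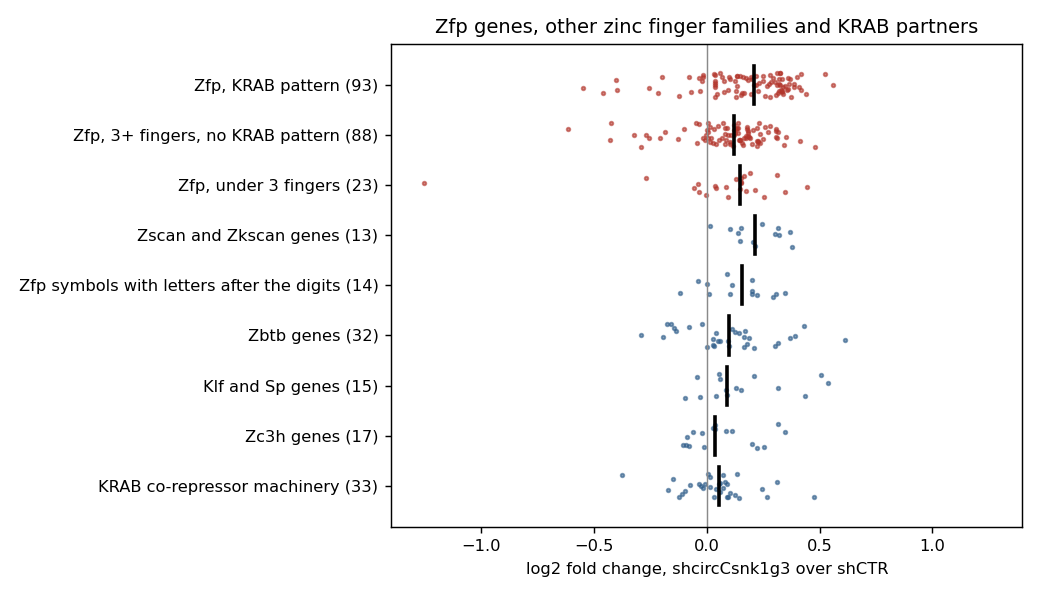
Log2 fold change of each gene (points) and the median (black bar) for Zfp members by protein pattern (red) and for other zinc finger families and the KRAB co-repressor list (blue), with the number of genes in brackets. The grey line is the median of all genes with at least 500 summed counts, and each black bar lies to its right, nearest to it for the Zc3h genes and the co-repressor list.

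Zfp genes that lie side by side did not all share 1 value. With fewer than 250 kb between neighbouring starts and at least 3 genes a run, 157 Zfp genes fell into 24 runs, and 81 members lay in them. These had a median log2 fold change of 0.16, and the 124 other members had 0.14. Of the 15 runs with at least 3 members, 14 had a median above 0.

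The longest run by members spans Zfp677 to Zfp946 on chr17:21383748-22456689, with 9 members of 15 Zfp genes and log2 fold changes from -0.55 (Zfp52) to 0.52 (Zfp942). In it Zfp51 and Zfp53, close to Zfp52, stood at 0.32 and -0.03. The run from Zfp871 to Zfp101 on chr17:32765496-33394641 was, among runs with at least 3 members, the one with a median below 0, at -0.02 over 7 members, with 3 higher. In the run from Zfp553 to Zfp629 on chr7:127233061-127615797, 6 of 7 members were higher, and the exception was Zfp771. The run from Zfp84 to Zfp146 on chr7:29768552-30169750 has 8 members of 15 Zfp genes, and all 8 were higher, at 0.07 to 0.31. The run from Zfp712 to Zfp273 on chr13:67038596-67827002 has 4 members of 19 Zfp genes. These 4 were higher, at 0.20 to 0.42, and the interval of Zfp87 spanned 0. Zfp708, in this run but under the minimum, had 7 counts in shcircCsnk1g3 and 26 in shCTR. Of all genes with at least 500 summed counts, 50.1% were higher.

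**Figure D5:**
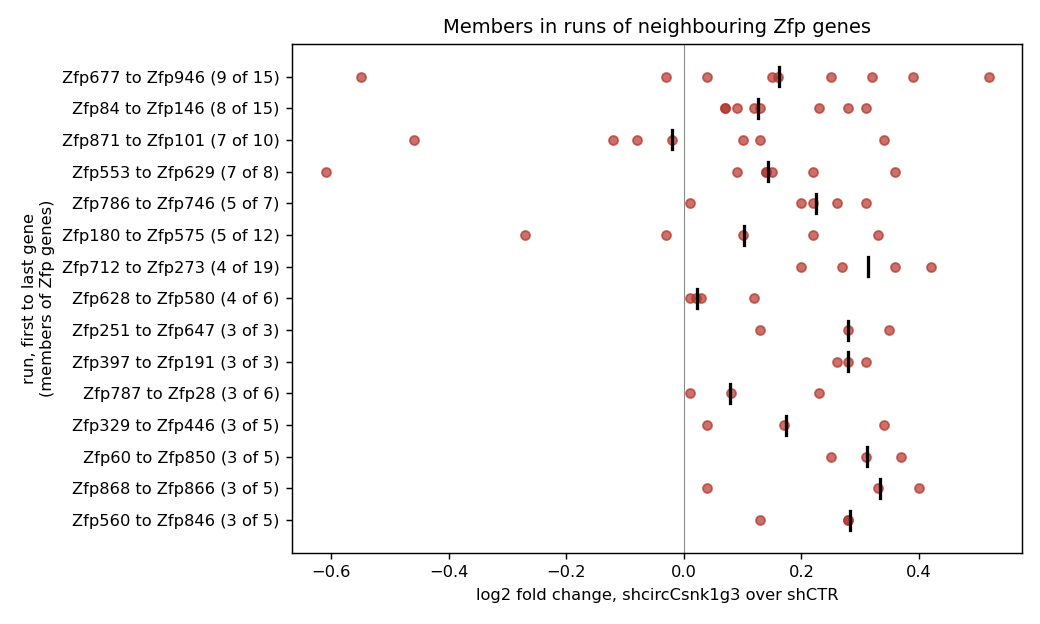
Log2 fold change of the members (points) and the median (black bar) in each run of neighbouring Zfp genes with at least 3 members, with the number of members and of Zfp genes in brackets. Of the runs shown, only that from Zfp871 to Zfp101 has a median below 0, and single genes such as Zfp52 and Zfp771 lie far from the others of their run.

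By chromosome, members were most numerous on chromosome 7 (51, of which 41 higher, median log2 fold change 0.12) and chromosome 17 (26, of which 18 higher, median 0.16). All 14 members on chromosome 6 and all 9 on chromosome 13 were higher, with medians of 0.18 and 0.27. On chromosome 2, 5 of 9 were higher, with a median of 0.01, and on chromosome 14, 1 of 3, with a median of -0.32. Of all genes with at least 500 summed counts, 50.1% were higher. The medians of all genes on these chromosomes lay between -0.04 and 0.04.

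The promoters of the members were searched for short motifs on both strands. RefSeq windows (GRCm38.p6) of 300 bases, 250 before to 50 after the start, matched 163 of the member symbols. The CCAAT box (CCAAT, bound by NF-Y) occurred in 50.9% of them, beside 43.6% of windows of genes with at least 500 summed counts and 41.1% of all 27025 windows. The GC box (CCGCCC, bound by Sp and Klf factors) occurred in 53.4%, beside 73.4% and 38.2%. The ETS motif (CCGGAAG) occurred in 22.1%, beside 22.7% and 9.93%. For the 78 matched members with a KRAB pattern the shares were 59.0%, 42.3% and 24.4%. A match is a description of these letters and not of a bound site, and no motif searched is contained in another.

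The 250 bases before the start are printed for the 2 highest members and the lowest one, so that both ends of the range can be compared. Capitals mark CCAAT and GC boxes in either direction.
Zfp39, chr11:58904226-58904475, minus strand: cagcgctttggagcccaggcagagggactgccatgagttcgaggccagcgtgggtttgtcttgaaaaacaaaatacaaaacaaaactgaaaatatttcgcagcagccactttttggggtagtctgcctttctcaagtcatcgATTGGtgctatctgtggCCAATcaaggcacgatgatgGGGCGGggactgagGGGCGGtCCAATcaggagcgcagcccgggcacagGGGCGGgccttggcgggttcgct
Zfp942, chr17:21962465-21962714, minus strand: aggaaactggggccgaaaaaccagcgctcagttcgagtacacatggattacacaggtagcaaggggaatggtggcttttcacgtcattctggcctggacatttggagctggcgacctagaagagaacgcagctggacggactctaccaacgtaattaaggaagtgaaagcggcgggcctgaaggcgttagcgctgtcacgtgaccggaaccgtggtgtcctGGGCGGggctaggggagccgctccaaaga
Zfp503, chr14:21989602-21989851, minus strand: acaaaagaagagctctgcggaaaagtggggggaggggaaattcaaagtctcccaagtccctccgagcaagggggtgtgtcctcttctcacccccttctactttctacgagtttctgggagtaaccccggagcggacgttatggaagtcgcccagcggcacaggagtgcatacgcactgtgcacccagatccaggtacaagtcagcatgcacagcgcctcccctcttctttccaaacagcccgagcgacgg

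The Zfp39 stretch held 3 CCAAT boxes and 3 GC boxes, the Zfp942 stretch held no CCAAT box and 1 GC box, and the Zfp503 stretch held neither. Their GC contents were 56.0%, 56.8% and 57.2%. The 2 highest members thus did not share a CCAAT box in these stretches.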

How the data were processed

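Poly(A) RNA of mouse sarcoma cells was sequenced in 2 libraries, 1 for shcircCsnk1g3 and 1 for shCTR. The authors converted reads with bcl2fastq 2.20, aligned them with STAR 2.6.1 to GRCm38 and summarised genes with RSEM 1.2.28, which divides reads that match several genes. Their own comparison used edgeR 3.30. The authors deposited an estimated count per gene, as whole numbers without normalization, for 25509 genes, plus 92 spike-in rows without a single count, not used here. They also deposited TMM-scaled CPM for 11624 genes, in which each column is the count column times 1 constant, used here as an alternative only.

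The members and gene lists were chosen with earlier results of these data known. TMM factors came from edgeR 4.0.16 in R 4.3.3, for genes that reached 10 counts in 1 of the libraries or in both. Log2 fold changes used a prior count of 2, and intervals are 95% Clopper-Pearson intervals of the 2 counts, computed with python 3.11.15, numpy 2.4.6, pandas 2.3.3 and scipy 1.17.1 and drawn with matplotlib 3.10.9. With 1000 counts in each library the interval extends about 0.13 to either side on the log2 scale. Counting intervals do not cover culture-to-culture variation or amplification duplicates. The steps were tested on simulated counts.

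Genes named singly are the 10 highest and 10 lowest members by log2 fold change, the 5 with the most counts, 3 on either side of the count minimum, and the role and co-repressor lists. Zfp51, Zfp53 and the genes that bound each run were named for their position after their values were seen. Zfp598, named for its level per length, is also on a role list. Protein patterns came from translated GENCODE M21 coding sequences, since no RefSeq proteins were used here. Coordinates are GRCm38 and 25251 gene identifiers were found in M21. The GENCODE release behind the counts was not given in the sources used here.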

Additional observations from a re-analysis of the deposited data

How the results depend on the processing

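No paired analysis was possible because each condition has 1 library, and for the same reason no replicate could be left out. The median log2 fold change of the members stayed between 0.13 and 0.18 under 13 alternatives (DESeq2 1.42.0 size factors, total counts, the deposited table, prior counts of 0.5 and 10, other count minimums, symbols with letters, members outside runs, a correction for GC content and length, and, chosen after seeing the data, members with little sequence sharing or little exon overlap). Total counts moved the median of all genes by 0.03, and the log2 ratio of the summed counts went from 0.11 to 0.14. Members at least 1.5-fold higher, 0 as reported, numbered 1 with total counts, 1 with a minimum of 200 summed counts, 7 with no minimum beyond 10 counts in a library, and 31 at a difference of 25%. Members at least 1.5-fold lower, 2 as reported, numbered 1 with total counts, with a minimum of 1000, outside runs or at 2-fold, 5 with no such minimum and 8 at or below 0.8 of the control level. Members lower in shcircCsnk1g3 numbered 67 of 291 with no such minimum, and members higher numbered 95 of 124 outside runs, where fewer genes were counted. Of 440 recomputed values of 88 named genes, 436 stayed within their counting interval. Depth limits single genes: the members' counting intervals extend by a median of 0.16 to either side, beside a family median of 0.15.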
